A study of Homo sapiens with 15 samples.

Results

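The comparison described here sets CALDOX cells that had spent 24 h in 4 µM doxorubicin against CAL51 cells that had spent 24 h in 0.4 µM. Its members were chosen by sample title: 3 arrays of treated CALDOX and 3 of treated CAL51, 6 of the 15 arrays in the series. CAL51 is a human triple-negative breast cancer cell line, and CALDOX was raised from it by long culture in 0.4 µM doxorubicin until the cells resisted the drug. The treated CALDOX cultures were first grown for 3 passages without drug. The other groups used are untreated CALDOX and untreated CAL51, with 3 arrays each. The remaining group, 3 arrays of CAL51 after 48 h in 0.4 µM, took part in no comparison. It entered the shared estimate of the spread, the choice of a probe set for each gene and the principal components. Per the labels CALDOX was routinely kept in doxorubicin, and they do not say whether the untreated CALDOX cultures had drug-free passages, or whether CALDOX is a clone or a mixed population. Each array came from its own culture, per the series' design text. The lines differ here in history and in dose at once, so the line and the dose cannot be told apart, and what is compared is the state of each line under drug, not its response to it.

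Doxorubicin is an anthracycline that traps topoisomerase II on DNA and leaves double-strand breaks, which in cells with working p53 raise the transcription of p53 targets such as CDKN1A and MDM2. Cells that survive anthracyclines are known to do so by pumping the drug out through ATP-binding cassette transporters, by lowering topoisomerase II, by reducing the drug with carbonyl and aldo-keto reductases, and by buffering oxidants with glutathione and NRF2-driven enzymes. Slower cycling also protects, because topoisomerase IIα is made mostly in S and G2 phase.

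RNA was measured as log2 intensities of 54675 Affymetrix probe sets, and each of 19775 genes was read from its brightest probe set. Pearson correlations over all probe sets were 0.9975 to 0.9978 among the treated CALDOX arrays, 0.9929 to 0.9972 among the treated CAL51 arrays and 0.9808 to 0.9835 between the 2 groups. The first principal component of all 15 arrays held 60.9% of the variance and separated the lines. Below, a log2 difference is treated CALDOX minus treated CAL51 with its limma standard error (SE), n = 3 arrays in each group. A gene is called when its Benjamini-Hochberg adjusted p over all genes, from limma, is under 0.05. Keratin 18 (KRT18) read 13.55, 13.58 and 13.55 in treated CALDOX and 14.22, 14.22 and 14.25 in treated CAL51, near the top of the table's range of 3.083 to 14.762. The genes that define the triple-negative class did not separate the lines: ESR1 differed by 0.06 ± 0.09, PGR by -0.01 ± 0.09 and ERBB2 by 0.00 ± 0.06. The table carries no detection calls, so these values do not say whether the receptors were expressed.

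The 2 treated lines differed at 5381 genes, 27.2% of those tested. Of these, 2784 (14.1%) were higher and 2597 (13.1%) lower in treated CALDOX. Most of the differences were small: the median absolute difference over all genes was 0.12, against a median SE of 0.08. Differences of at least 2-fold were called at 482 genes (2.44%), 237 of them higher (1.2%) and 245 lower (1.24%). At 7853 genes (39.7%) no array of either line fell within the range of the other line.

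Nearly all of the large differences were also present between the untreated lines, which share no array with the treated ones. Untreated CALDOX and untreated CAL51 differed at 5125 genes (25.9%), of which 504 (2.55%) reached 2-fold, 276 higher (1.4%) and 228 lower (1.15%). Of the 2784 genes higher in treated CALDOX, 1997 were also higher in untreated CALDOX, which is 71.7% of the treated list and 71.1% of the untreated list of 2807 (14.2% of genes). Of the 2597 lower genes, 1746 were shared, 67.2% of the treated list and 75.3% of the untreated list of 2318 (11.7% of genes). By contrast, 12 genes were higher in treated CALDOX and lower in untreated CALDOX, and 11 the reverse. Among the genes at least 2-fold higher under drug, 236 of 237 were called higher in untreated CALDOX too, and among those at least 2-fold lower 242 of 245 were called lower.

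The difference between the 2 comparisons was itself tested, as the end-state difference minus the untreated difference. Algebraically it is also treated minus untreated CALDOX, less treated minus untreated CAL51. The labels do not say whether untreated CALDOX was off drug, so its part of this value is not known to be a 24 h response. It was called at 283 genes (1.43%), 114 positive (0.576%) and 169 negative (0.855%). It reached 2-fold at 15 genes (0.0759%), 6 positive (0.0303%) and 9 negative (0.0455%). The 6 were RXFP1, ASNS, SLC7A11, INHBE, TRIB3 and RASGRP1. The 9 were TRIM22, PURPL, KITLG, XG, ADH1C, EGR3, RASEF, MEOX1 and the tetraspanin TSPAN6. Of the 482 genes at least 2-fold apart under drug, 42 lay further from 0 than in the untreated lines, 20 lay nearer, and at 420 this test was not passed. The count of 283 is sensitive to single arrays. It was 161, 184 and 173 without treated CALDOX replicate 1, 2 and 3, 185 without treated CAL51 replicate 1, 186 and 168 without untreated CALDOX replicate 2 and 3, and 187 without untreated CAL51 replicate 3. It was highest, 353, without treated CAL51 replicate 2.

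**Figure D1:**
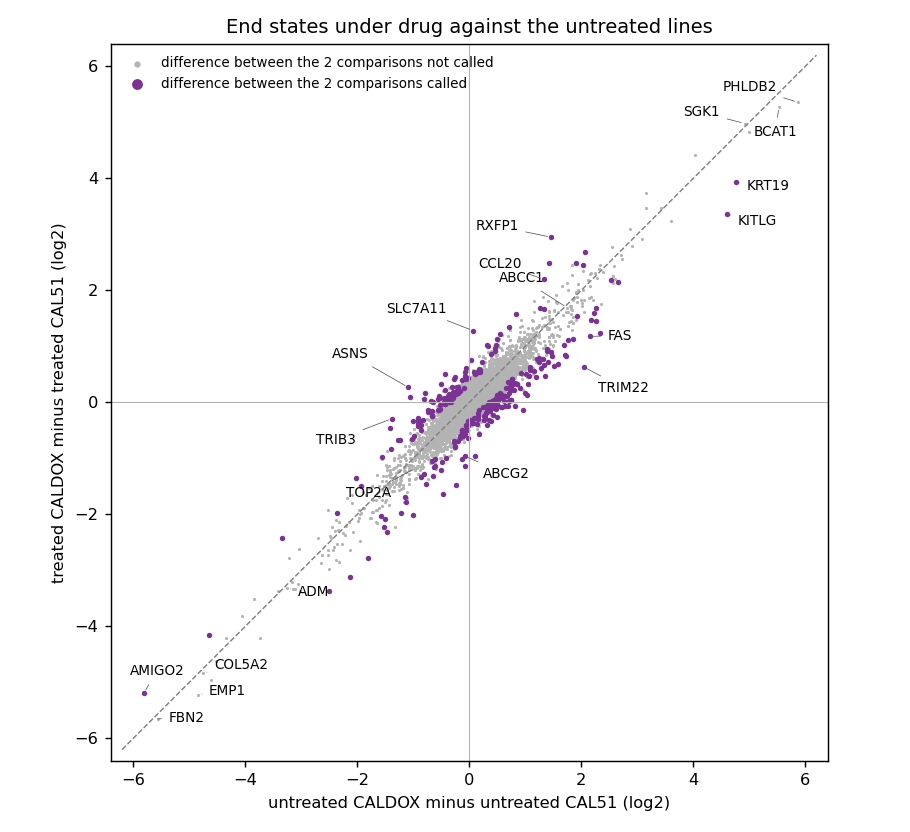
Each point is 1 of 19775 genes, with the log2 difference between untreated CALDOX and untreated CAL51 on the horizontal axis and that between treated CALDOX and treated CAL51 on the vertical axis; the dashed line marks equal differences. Most genes far from 0 lie near the line (BCAT1 at 5.53 and 5.28, FBN2 at -5.56 and -5.65), and the 283 genes in purple, ASNS, SLC7A11 and TRIM22 among them, lie off it.

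The gene furthest above its level in treated CAL51 was PHLDB2, which encodes a membrane-bound protein that helps anchor microtubules at the cell cortex. It read 9.87, 9.89 and 9.76 in treated CALDOX against 4.37, 4.51 and 4.57 in treated CAL51, a log2 difference of 5.36 ± 0.09 (adjusted p = 2.3e-15). BCAT1, the cytosolic branched-chain amino acid transaminase, read 12.33, 12.38 and 12.27 against 6.92, 7.11 and 7.11 in treated CAL51, 38.9-fold higher (5.28 ± 0.11, adjusted p = 5.8e-15). SGK1, a survival kinase induced by glucocorticoids and cell stress, was 31.6-fold higher (4.98 ± 0.15). The matrix protein nephronectin (NPNT) was higher by 4.83 ± 0.08, the intestinal cadherin CDH17 by 4.41 ± 0.09 and the simple-epithelial keratin KRT19 by 3.93 ± 0.07. In each of these genes the lowest treated CALDOX array stood above the highest treated CAL51 array by more than the spread within either group.

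Several of the other highest genes encode secreted or cell-surface signals. CXCL5, a neutrophil-attracting chemokine, was higher by 3.74 ± 0.22, EGFL6 by 3.47 ± 0.11, the KIT ligand KITLG by 3.36 ± 0.10, the interleukin 6 receptor IL6R by 3.10 ± 0.13, the relaxin receptor RXFP1 by 2.95 ± 0.13, WNT5A by 2.91 ± 0.15 and the hyaluronan receptor CD44 by 2.80 ± 0.09. GEM, a small GTPase, and CRYM, a thyroid hormone-binding protein, were higher by 3.48 ± 0.08 and 3.24 ± 0.07. All 15 of the highest genes were called higher in untreated CALDOX too. RXFP1 was the one of the 15 called for a gap wider under drug: it differed by 1.46 between the untreated lines, and the difference of the differences was 1.49 (adjusted p = 0.00055). KITLG and KRT19 were called for narrower gaps under drug, by -1.24 (adjusted p = 0.00026) and -0.83 (adjusted p = 0.00055).

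The 15 lowest genes in treated CALDOX included FBN2, EMP1 and AMIGO2 at the largest differences. FBN2, the microfibril protein fibrillin 2, read 5.60, 5.49 and 5.05 in treated CALDOX and 10.94 to 11.14 on the 3 arrays of treated CAL51, 50.1-fold lower (-5.65 ± 0.14, adjusted p = 8e-14). EMP1, an epithelial membrane protein, read 6.34, 6.35 and 6.47 against 11.70, 11.38 and 11.73 (-5.22 ± 0.10, adjusted p = 2.3e-15). AMIGO2, an adhesion protein, differed by -5.19 ± 0.09 and COL5A2, a fibrillar collagen chain, by -4.83 ± 0.11. Connexin 43 (GJA1), the channel protein of gap junctions, differed by -4.20 ± 0.10 and read 3.91, 4.05 and 4.28 in treated CALDOX against 8.19, 8.24 and 8.42. The group also held 2 secreted Wnt antagonists, SOST at -4.95 ± 0.11 and FRZB at -3.51 ± 0.14, the neuropeptide NTS at -4.15 ± 0.08 and the innate immune protein PTX3 at -3.82 ± 0.12. Enzymes of lipid metabolism were present too: the desaturase SCD5 at -4.20 ± 0.10 and the ceramide synthase CERS6 at -3.36 ± 0.11. USP44, a deubiquitinase of the mitotic checkpoint, differed by -4.62 ± 0.20, and its treated CALDOX arrays spread from 4.40 to 5.24. GNB4 (-3.37 ± 0.12), LIX1 (-3.36 ± 0.09) and RGCC (-3.34 ± 0.08) complete the 15.

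The lower readings among these 30 genes may be background, since the table has no detection calls. The 9 blood cell markers measured, genes a breast tumour line should lack, averaged 5.52 (NKG7) to 8.18 (HBB) in treated CALDOX and 5.36 (LYZ) to 8.09 (HBB) in treated CAL51. In 27 of the 30 genes the dimmer line's mean lay below the highest of these marker means in that line, and in 6 (PHLDB2, IL6R, FBN2, USP44, GJA1 and RGCC) it lay below the lowest. The fold changes and the order of the genes are therefore those of the readings, and were not measured against a background. The same limit holds for other named genes with readings in that range.

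The size of these values also depends on the probe sets. With the mean of a gene's probe sets in place of the brightest, the difference was 1.43 for PHLDB2, 3.18 for NPNT, 2.01 for KRT19, 2.45 for CXCL5, 1.98 for IL6R, 1.62 for CD44, -2.34 for FBN2, -1.51 for SCD5, -1.81 for FRZB, -2.01 for GNB4 and -1.22 for RGCC. All 11 remained called in the same direction.

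**Figure D2:**
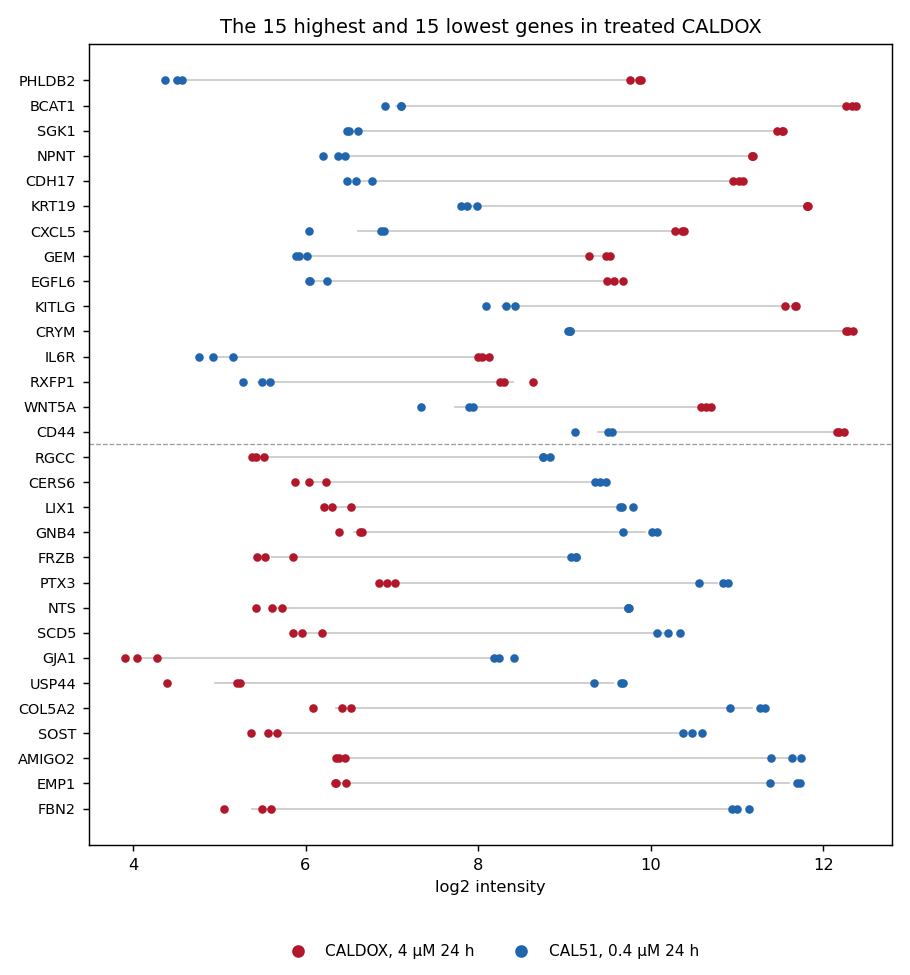
Log2 intensity on each of the 3 treated CALDOX arrays (red) and the 3 treated CAL51 arrays (blue) for the 15 genes with the highest difference (above the dashed line) and the 15 with the lowest (below it); grey lines join the group means. No array of one group falls within the range of the other in any of the 30 genes.

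Of the drug transporters and resistance proteins, 5 of 19 were higher and 3 lower, beside 14.1% and 13.1% of all genes. Their median difference was 0.03, equal to that over all genes. ABCC1, the multidrug resistance protein MRP1, which exports anthracyclines and glutathione conjugates, read 11.85, 11.94 and 11.86 in treated CALDOX against 10.22, 10.14 and 10.24 in treated CAL51. It was 3.22-fold higher (1.69 ± 0.06, adjusted p = 3.5e-12), and its other probe set gave 1.69 as well. The major vault protein MVP read 9.82, 9.72 and 9.77 against 8.18, 8.15 and 8.31 (1.56 ± 0.09, adjusted p = 1.9e-09), and ABCA3, a lipid transporter of lamellar bodies, was higher by 0.89 ± 0.08. The untreated lines differed by 1.75 for ABCC1, 1.67 for MVP and 0.86 for ABCA3, and the difference of the differences was not called for any of the 3 (adjusted p = 0.85, 0.83 and 0.95).

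ABCB1, which encodes P-glycoprotein, the best known doxorubicin pump, did not separate the lines. It read 5.73, 5.74 and 5.83 in treated CALDOX and 5.64, 5.95 and 5.66 in treated CAL51, a difference of 0.02 ± 0.09 (adjusted p = 0.93). ABCG2, the breast cancer resistance protein, went the other way: it read 6.58, 6.65 and 6.85 in treated CALDOX against 7.63, 7.81 and 7.52 in treated CAL51 (-0.96 ± 0.09, adjusted p = 8.5e-07). Its 2 groups did not overlap, while the untreated lines overlapped, at 7.21, 7.01 and 7.24 in CALDOX and 7.32, 7.22 and 7.15 in CAL51. The end-state difference was below the untreated one by -0.88 (adjusted p = 0.0023).

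The genes next to ABCC1 on its chromosome were higher wherever limma called them. Of 17 genes, ABCC1 included, 8 were higher (47.1%) and 0 lower, beside 14.1% and 13.1% of all genes (median 0.17). At an unadjusted p under 0.05, too, 0 were lower. CEP20, a centriolar satellite protein, was higher by 1.39 ± 0.10 and NDE1, which tethers dynein, by 0.89 ± 0.06 (0.55 over the mean of its 5 probe sets). The 21 genes around ABCB1 held 3 higher (14.3%, near the share of all genes) and 5 lower (23.8%). The 5 became 3 without treated CALDOX replicate 1 or treated CAL51 replicate 3. The 2 neighbourhoods were not tested against each other.

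Enzymes that reduce carbonyl groups were mixed. Of 17 reductases 6 were higher (35.3%) and 5 lower (29.4%), beside 14.1% and 13.1% of all genes (median 0.15). AKR1C3, an aldo-keto reductase that acts on doxorubicin, was higher by 0.69 ± 0.14 (adjusted p = 0.0015) and the retinal reductase DHRS3 by 1.10. POR, the electron donor of cytochrome P450 enzymes, differed by -0.55. CBR3, a carbonyl reductase, was lower in treated CALDOX (-0.26 ± 0.07, adjusted p = 0.007) but higher in untreated CALDOX (0.50), and these differences were themselves different by -0.75 (adjusted p = 0.00041).

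Antioxidant genes leaned upward: 21 of 35 NRF2 and glutathione genes were higher (60%) and 2 lower (5.71%), beside 14.1% and 13.1% of all genes. Their median was 0.35, against 0.03 over all genes. GPX2, a glutathione peroxidase, read 9.32, 9.18 and 9.35 in treated CALDOX against 7.85, 8.06 and 7.89 in treated CAL51 (1.35 ± 0.10, adjusted p = 5e-08). PGD, which makes NADPH in the pentose phosphate pathway, was higher by 1.14 ± 0.05 and the glutathione transferase GSTM3 by 0.86 ± 0.05. The mean of the probe sets gave 0.79 for GPX2 and 0.36 for PGD. GCLC, the catalytic subunit that starts glutathione synthesis, was higher by 0.73, and its modifier GCLM by 0.35. The exceptions were MGST1, a microsomal glutathione transferase, at -0.83 ± 0.07 and the superoxide dismutase SOD1 at -0.42.

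SLC7A11, the cystine importer that supplies glutathione synthesis, read 10.93, 10.93 and 10.89 in treated CALDOX and 9.65, 9.47 and 9.79 in treated CAL51 (1.28 ± 0.07, adjusted p = 9.7e-10). Untreated CALDOX and CAL51 differed by 0.07, and the difference of the differences was 1.21 (adjusted p = 1.6e-05).

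Metallothioneins, small cysteine-rich proteins that bind metals and scavenge radicals, were higher in 7 of 8 cases (87.5%, beside 14.1% of all genes). By limma 0 were lower, and 0 at an unadjusted p under 0.05. These genes are close relatives, and their probe sets could pick up each other's RNA, so the 7 may not be separate readings. All 7 values were modest, from 0.35 for MT1G to 0.83 ± 0.10 for MT1M. MT1M was further apart in the untreated lines (1.73), by a tested -0.90 (adjusted p = 0.0026).

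**Figure D3:**
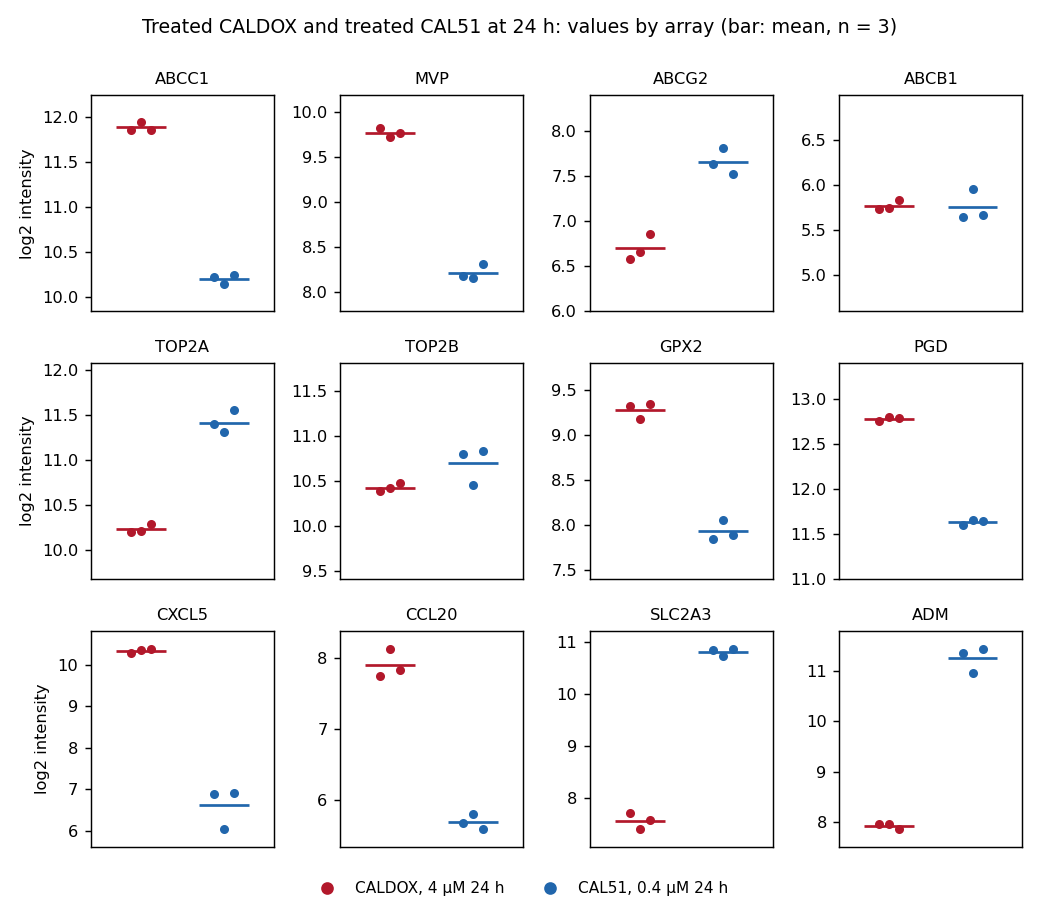
Log2 intensity of 12 genes on each treated CALDOX array (red, left) and each treated CAL51 array (blue, right), with bars at the group means (n = 3); the vertical scale differs between panels. ABCB1 and TOP2B are the 2 genes whose groups overlap.

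Of 11 topoisomerase and cleavage-complex repair genes, limma called 0 higher and 3 lower (27.3%, beside 13.1% of all genes). Their median was -0.11, and 1 was higher at an unadjusted p under 0.05. TOP2A, the proliferation-linked isoform that doxorubicin traps, read 10.20, 10.22 and 10.29 in treated CALDOX and 11.40, 11.31 and 11.56 in treated CAL51, 2.27-fold lower (-1.18 ± 0.08, adjusted p = 8.5e-09). In the untreated lines it differed by -0.97. TOP1 was lower by a smaller margin (-0.40 ± 0.05, adjusted p = 9.8e-06). TOP2B, the isoform made throughout the cycle, read 10.39, 10.43 and 10.48 against 10.81, 10.46 and 10.84, and its -0.27 ± 0.10 missed the threshold (adjusted p = 0.06). Its treated CAL51 replicate 2 lay among the treated CALDOX values, and without that array the difference was -0.39 (adjusted p = 0.0041). TOP3B passed with all arrays (-0.26, adjusted p = 0.039) but not without treated CAL51 replicate 2, where its adjusted p was 0.12.

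Genes of double-strand break repair were lower where they were called: limma called 17 of 32 lower (53.1%, beside 13.1% of all genes) and 0 higher. At an unadjusted p under 0.05, too, 0 were higher (median -0.23). FANCI, a Fanconi anaemia protein, differed by -0.60 ± 0.07, the helicase BLM by -0.47 ± 0.06 and the checkpoint kinase CHEK2 by -0.42 ± 0.06. None of the 32 reached 2-fold.

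Of the 91 genes in the lists of cell division, 68 were lower in treated CALDOX. In the G2 and mitosis list limma called 37 of 45 genes lower and 0 higher (1 at an unadjusted p under 0.05; median -0.39), and in the G1/S and replication list 31 of 46 were lower and 2 higher (median -0.33), beside 13.1% of all genes lower. The mean level of the 45 mitotic genes was 9.76 to 9.78 on the treated CALDOX arrays and 10.07 to 10.24 on the treated CAL51 arrays. MKI67, the proliferation marker, read 9.90, 9.93 and 9.98 in treated CALDOX and 10.58, 10.55 and 10.66 in treated CAL51 (-0.66 ± 0.06, adjusted p = 1.3e-07). The spindle protein ASPM differed by -0.89 ± 0.06, the checkpoint kinase BUB1 by -0.77 ± 0.09 (-0.33 over the mean of its probe sets) and CDK1, the kinase that starts mitosis, by -0.66 ± 0.09. CCNE2, a cyclin of S-phase entry, was the one replication gene at least 2-fold lower (-1.23 ± 0.11, adjusted p = 3.7e-07), and the repressor E2F8 differed by -0.86 ± 0.08. In bulk RNA, fewer dividing cells and less of these messengers in each cell cannot be told apart. TOP2A and many of the repair genes are transcribed with the cycle, and the part of cycling in their values was not tested.

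The untreated lines differed in the same direction at fewer of these genes. Of the 45 mitotic genes 17 were lower in untreated CALDOX and 1 higher, beside 11.7% and 14.2% of all genes, with a median of -0.16. The median difference of the differences was -0.20. Of the 45 mitotic genes 3 were called for it, AURKA, NDC80 and UBE2C, all negative, beside 0.855% of all genes called negative. Of the 12 arrays of the 4 groups left out in turn, 8 left 0 of the 45 called by limma: any of the 3 treated CALDOX arrays, treated CAL51 replicate 1 or 3, untreated CALDOX replicate 2 or 3, and untreated CAL51 replicate 2. Leaving out untreated CAL51 replicate 1 left 1.

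Of the p53 targets 17 of 40 were higher in treated CALDOX (42.5%) and 6 lower (15%), beside 14.1% and 13.1% of all genes. Their median was 0.10. Between the untreated lines 27 were higher in CALDOX and 2 lower, beside 14.2% and 11.7% of all genes, with a median of 0.47. Whether the untreated CALDOX cultures still held doxorubicin is not stated in the labels, and its part in these values was not tested. The difference of the differences was negative at 20 of the 40, beside 0.855% of all genes, and positive at 0 by limma (2 at an unadjusted p under 0.05). CDKN1A, which encodes the cell cycle inhibitor p21, read 12.14, 12.08 and 12.11 in treated CALDOX against 11.71, 11.45 and 11.71 in treated CAL51. In the untreated lines it read 10.93 to 11.06 in CALDOX and 9.61 to 9.69 in CAL51. The end-state difference was thus 0.48 ± 0.07 (adjusted p = 5.1e-05), the untreated one 1.35, and they differed by -0.87 (adjusted p = 0.00027).

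TRIM22, a p53- and interferon-induced ubiquitin ligase, differed by 0.63 ± 0.08 under drug and 2.05 in the untreated lines, and the death receptor FAS by 1.18 ± 0.12 and 2.15. Their differences of the differences were -1.42 (adjusted p = 1.6e-05) and -0.97 (adjusted p = 0.0056). The proapoptotic BAX and the oxidoreductase TP53I3 were higher in untreated CALDOX by 0.74 and 0.82 and did not pass the test under drug (0.05 and -0.07).

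MDM2, the ubiquitin ligase that degrades p53, ended lower in treated CALDOX. It read 10.29, 10.40 and 10.32 against 10.98, 10.80 and 11.12 in treated CAL51 (-0.64 ± 0.09, adjusted p = 6.7e-05), while the untreated lines differed by -0.02. Of its 10 probe sets 9 gave a negative value and 1, of low intensity, gave 0.55. The difference of the differences, -0.62, had an adjusted p of 0.028 with all arrays and of 0.085 without treated CALDOX replicate 1. PURPL, a long noncoding RNA induced by p53, read 3.48, 3.50 and 3.88 in treated CALDOX against 5.25, 4.90 and 5.12 in treated CAL51 (-1.47 ± 0.15, adjusted p = 1.7e-06). These readings lie below the lowest blood marker mean of each line, so whether PURPL was expressed in either is not known. The untreated values of PURPL lay between 3.27 and 3.64 in both lines.

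Of 34 death genes 5 were higher (14.7%) and 7 lower (20.6%), beside 14.1% and 13.1% of all genes (median 0.02). The killer proteins BCL2L11, which encodes BIM, and BOK differed by -1.47 ± 0.09 and -1.34 ± 0.08, and BIK, another of them, by 1.32 ± 0.07. The means over probe sets were -0.97 for BCL2L11 and -0.61 for BOK. The probe sets disagreed: the second brightest of BCL2L11 gave 0.04, the rest of its 7 being negative, and the other of BOK gave 0.12. The protective BCL2L1, which encodes BCL-XL, was higher by 0.60 ± 0.10 (adjusted p = 0.00019).

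ATF4 is the transcription factor that cells raise when amino acids run short or unfolded proteins gather, and its targets make, import and charge amino acids. Among 37 genes of this programme 14 were higher (37.8%) and 6 lower (16.2%) in treated CALDOX, beside 14.1% and 13.1% of all genes (median 0.10). The untreated lines stood the other way, with 5 higher and 26 lower in untreated CALDOX, beside 14.2% and 11.7% of all genes (median -0.38). The difference of the differences was positive at 22 of 37, beside 0.576% of all genes, and negative at 0 by limma (0 at an unadjusted p under 0.05). The count of 22 stayed between 21 and 22 when any 1 array was left out.

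ASNS, asparagine synthetase, shows the pattern. It read 9.70, 9.72 and 9.81 in treated CALDOX and 9.42, 9.57 and 9.44 in treated CAL51, while the untreated values were 9.87, 10.03 and 9.99 in CALDOX and 10.98, 11.17 and 11.02 in CAL51. It was higher under drug by 0.27 ± 0.07 (adjusted p = 0.0063), against -1.09 in the untreated lines, and these values differed by 1.35 (adjusted p = 5.3e-06). The mean of its 2 probe sets gave 0.08 under drug, which did not pass. TRIB3, a pseudokinase that ATF4 induces, differed by -0.29 ± 0.06 under drug and -1.38 in the untreated lines, a change of 1.09 (adjusted p = 1.6e-05). For INHBE, an activin subunit, the values were 0.10 ± 0.13 and -1.06, and they differed by 1.16 (adjusted p = 0.0033). ATF4 itself read 11.95, 11.95 and 11.98 in treated CALDOX and 11.53, 11.46 and 11.54 in treated CAL51, 1.37-fold higher (0.45 ± 0.06, adjusted p = 1.1e-05).

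The sequences below are shown because ATF4 binds a known composite element and 3 of the genes discussed carry its core in the promoter. The core searched was TGATGNAA on either strand, in RefSeq windows of GRCh38.p14 that reach from 250 bases before to 50 after each start. It occurs in 3.62% of 35116 windows and in at least 1 window of 4.46% of 27305 genes. Of the 37 genes, 30 have a window and 12 of these hold the core (40.0%), and the list is made largely of known ATF4 targets. Capitals mark the match, and up to 45 bases are given on each side.
ASNS, chr7:97872424-97872521, minus strand: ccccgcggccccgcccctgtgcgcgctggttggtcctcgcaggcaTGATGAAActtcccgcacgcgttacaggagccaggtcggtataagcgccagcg
BCAT1, chr12:24949097-24949194, minus strand: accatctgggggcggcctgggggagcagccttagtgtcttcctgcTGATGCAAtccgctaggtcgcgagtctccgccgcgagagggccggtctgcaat
CHAC1, chr15:40953221-40953314, plus strand: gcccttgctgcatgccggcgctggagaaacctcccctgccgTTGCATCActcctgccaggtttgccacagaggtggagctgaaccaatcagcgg

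The core begins 68 bases before the start in ASNS, 48 before in 1 of the 5 windows of BCAT1 and 209 before in CHAC1, where it lies on the opposite strand. Of the 12 genes with a match, 2 were higher, 2 lower and 8 not called at the end state. For the difference of the differences 8 of the 12 were positive, ASNS and CHAC1 among them, beside 22 of all 37 genes of the list. CHAC1, which degrades glutathione, differed by 0.06 ± 0.08 under drug and -0.80 in the untreated lines. BCAT1 was not called (-0.25), with a gap of 5.28 under drug and 5.53 in the untreated lines. A match describes the letters of the window and does not show that the factor binds there.

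Among chaperones of the endoplasmic reticulum 5 of 22 were higher (22.7%) and 4 lower (18.2%), beside 14.1% and 13.1% of all genes (median 0.11). The 5 became 3 without treated CALDOX replicate 3 or treated CAL51 replicate 2. HSPA5, the main chaperone there, differed by 0.01 ± 0.06. Cytosolic and mitochondrial heat shock genes leaned down, with 10 of 18 lower (55.6%) and 2 higher (11.1%) (median -0.21). HSPB1, the small heat shock protein HSP27, read 11.33, 11.36 and 11.28 in treated CALDOX and 12.06, 12.08 and 12.16 in treated CAL51 (-0.78 ± 0.07, adjusted p = 2.5e-07). Its relative HSPB8 was higher by 1.14 ± 0.13 (0.59 over the mean of its probe sets).

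**Figure D4:**
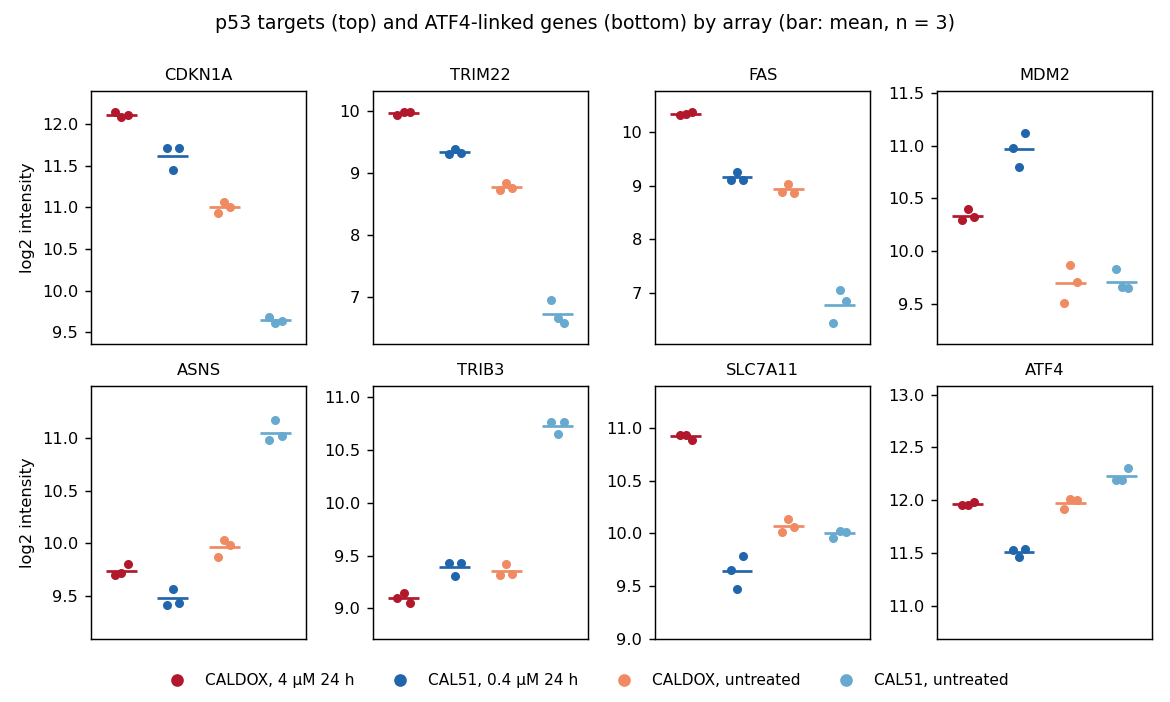
Log2 intensity on each array for 4 p53 targets and 4 genes of the ATF4 programme, in the order treated CALDOX, treated CAL51, untreated CALDOX and untreated CAL51, with bars at the group means (n = 3); the vertical scale differs between panels. The lines stand closer together in the treated than in the untreated groups in CDKN1A, TRIM22, FAS, ASNS and TRIB3, and further apart in SLC7A11 and MDM2.

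Early response genes, which cells switch on within minutes of a growth or stress signal, were higher at 14 of 30 and lower at 9 (median 0.18). These shares are 46.7% and 30%, beside 14.1% and 13.1% of all genes. FOS read 11.43, 11.47 and 11.45 in treated CALDOX and 9.81, 9.86 and 9.90 in treated CAL51, 3.02-fold higher (1.59 ± 0.05, adjusted p = 1.7e-12). Its partner family member FOSL2 was higher by 1.31 ± 0.09 and the ERK phosphatase DUSP5 by 1.54 ± 0.06. IER3, another stress-induced gene, was lower (-1.01 ± 0.06). The gap in FOS was 2.23 between the untreated lines, and the difference of the differences was -0.64 (adjusted p = 0.00032).

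Chemokines and cytokines controlled by NF-kappaB were among the genes furthest up. Of 33 inflammatory genes 11 were higher (33.3%) and 3 lower (9.09%), beside 14.1% and 13.1% of all genes (median 0.04). By at least 2-fold 5 were higher and 1 lower, beside 1.2% and 1.24% of all genes. CXCL5 read 10.28, 10.36 and 10.39 in treated CALDOX and 6.88, 6.04 and 6.91 in treated CAL51 (adjusted p = 1.5e-09). CCL20, which draws memory T cells and dendritic cells, read 7.75, 8.13 and 7.84 against 5.69, 5.81 and 5.60 (2.20 ± 0.12, adjusted p = 9.7e-10). CXCL3, a neutrophil chemokine, was higher by 1.64 ± 0.12, the cytokine IL6 by 1.26 ± 0.06, IL32 by 1.03 ± 0.06 and CXCL8 by 0.92 ± 0.11. The adhesion receptor ICAM1, also a target of NF-kappaB, differed by -1.02 ± 0.07. All of these were called in the same direction between the untreated lines. The gap in IL32 was 0.48 there, and the difference of the differences was 0.54 (adjusted p = 0.0017).

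The promoters of the 4 inflammatory genes with the largest differences are given because each holds a match to the kappaB element, which NF-kappaB dimers bind. The letters searched were GGG, any 2 bases and TTTCC, on either strand of the same windows. They occur in 1.91% of the windows and in 2.33% of genes, and in 13 of the 26 list genes that have a window (50.0%). The list was itself chosen as NF-kappaB genes, chemokines and cytokines, so a high share was to be expected. Capitals mark the match.
CXCL5, chr4:73998714-73998813, minus strand: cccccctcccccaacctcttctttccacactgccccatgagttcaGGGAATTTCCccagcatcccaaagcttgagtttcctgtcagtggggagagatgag
CCL20, chr2:227813718-227813817, plus strand: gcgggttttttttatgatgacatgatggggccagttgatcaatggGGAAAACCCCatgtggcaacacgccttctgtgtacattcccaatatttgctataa
CXCL3, chr4:74038714-74038813, minus strand: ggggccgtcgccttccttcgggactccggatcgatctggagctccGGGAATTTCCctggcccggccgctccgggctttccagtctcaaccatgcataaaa
IL6, chr7:22727082-22727181, plus strand: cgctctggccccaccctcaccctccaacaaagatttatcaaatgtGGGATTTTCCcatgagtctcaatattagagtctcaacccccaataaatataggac

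The matches begin 91 bases before the start in CXCL5, 79 in CCL20 and CXCL3 and 73 in IL6. Of the 13 list genes with a match, 8 were higher in treated CALDOX, 0 lower and 5 not called. CXCL2 is one of the 5: it holds the same letters and differed by -0.07 ± 0.10. The whole list held 11 of 33 higher and 3 lower, and over all genes 14.1% were higher and 13.1% lower. A match to the kappaB letters does not show that NF-kappaB binds there.

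Interferon-stimulated genes were higher at 15 of 43 (34.9%) and lower at 2 (4.65%), beside 14.1% and 13.1% of all genes (median 0.13). The antiviral membrane proteins IFITM1, IFITM2 and IFITM3 were higher by 1.64 ± 0.08, 1.34 ± 0.06 and 1.10 ± 0.06, and HERC6, an interferon-induced ligase, by 1.06 ± 0.10. IFITM1 read 10.36, 10.33 and 10.28 in treated CALDOX and 8.57, 8.74 and 8.74 in treated CAL51. The 3 IFITM genes are close relatives, and their probe sets could pick up each other's RNA. GBP1, a guanylate-binding protein raised by interferon gamma, went the other way (-1.70 ± 0.11, adjusted p = 4.8e-09, and -3.26 with its most variable probe set). Of 16 genes of MHC class I presentation 5 were higher (31.2%) and 1 lower (6.25%). The immunoproteasome subunit PSMB8 was higher by 0.71 ± 0.11 while its neighbour PSMB9 was lower (-0.60 ± 0.12, adjusted p = 0.00082).

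Glucose and hypoxia genes were lower at 18 of 36 (50%) and higher at 7 (19.4%), beside 13.1% and 14.1% of all genes (median -0.17). The 7 became 4 without any one of the treated CALDOX arrays. ADM, the vasodilator peptide adrenomedullin, read 7.96, 7.97 and 7.87 in treated CALDOX and 11.35, 10.96 and 11.43 in treated CAL51, 9.95-fold lower (-3.32 ± 0.10, adjusted p = 1.1e-12). The glucose transporters SLC2A3 and SLC2A1 differed by -3.24 ± 0.16 and -2.14 ± 0.06, and the collagen cross-linking enzyme LOX by -1.70 ± 0.09. SLC2A3 gave -4.98 with its most variable probe set. Not all hypoxia-linked genes followed: NDRG1 was higher by 1.88 ± 0.07 and the enolase ENO2 by 1.18 ± 0.10. The glycolytic enzymes LDHA (-0.29) and PGK1 (-0.31) differed far less than the transporters.

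Cholesterol and lipid genes held 8 higher (30.8%) and 3 lower (11.5%) of 26, beside 14.1% and 13.1% of all genes. The 8 became 5 without treated CALDOX replicate 2. INSIG1, which holds back sterol synthesis, was higher by 0.73 ± 0.11, and the desaturase SCD was lower (-0.62 ± 0.06, and -1.01 with its most variable probe set). Lysosome and autophagy genes were higher at 10 of 29 (34.5%) and lower at 2 (6.9%), with LAMP2, a lysosomal membrane protein, at 0.79 ± 0.07. The probe sets of LAMP2 ranged from -0.16 to 1.02.

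Cell identity genes did not shift in a single direction. Of 35 epithelial genes 6 were higher (17.1%) and 14 lower (40%), and of 26 mesenchymal genes 5 were higher (19.2%) and 10 lower (38.5%). Over all genes 14.1% were higher and 13.1% lower. E-cadherin (CDH1), the main epithelial adhesion protein, read 6.25, 6.73 and 6.52 in treated CALDOX and 8.07, 7.61 and 8.34 in treated CAL51 (-1.51 ± 0.15, adjusted p = 1.2e-06). The desmosomal cadherin DSG2 differed by -1.96 ± 0.10 and the transport protein MAL2 by -2.13 ± 0.14, whereas CD24 was higher by 1.47 ± 0.06 beside KRT19. On the mesenchymal side vimentin (VIM) read 11.36, 11.35 and 11.35 against 13.09, 13.10 and 13.13 (-1.75 ± 0.07, adjusted p = 7.3e-12) and the actin-binding protein TAGLN differed by -1.93 ± 0.06. Fibronectin (FN1) was higher, at 13.77, 13.73 and 13.77 in treated CALDOX and 11.07, 11.03 and 11.12 in treated CAL51, 6.41-fold (2.68 ± 0.06). The mean of the probe sets gave -0.96 for both CDH1 and VIM. CD24 had a narrower gap under drug than in the untreated lines (-0.70, adjusted p = 0.00025) and FN1 a wider one (0.62, adjusted p = 0.00055).

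Matrix and integrin genes were higher at 14 of 54 (25.9%) and lower at 9 (16.7%), beside 14.1% and 13.1% of all genes. Those lower included the larger differences. Beside COL5A2, the matricellular protein THBS1 differed by -2.72 ± 0.10 (-1.62 over the mean of its 7 probe sets), the collagen chain COL1A2 by -1.98 ± 0.05 and COL12A1 by -1.35 ± 0.06. The laminin receptor ITGA6 was higher by 1.36 ± 0.12. Growth factor genes held 12 higher (23.1%) and 12 lower (23.1%) of 52. IGFBP3, which binds insulin-like growth factors, was higher by 1.16 ± 0.06 and the receptor ERBB4 was lower (-0.75 ± 0.07). Of 15 luminal genes 2 were higher (13.3%, beside 14.1% of all genes) and 2 lower (13.3%, beside 13.1%). The pioneer factor FOXA1 was higher by 1.26 ± 0.08 and the secretory protein AGR2 by 2.18 ± 0.05, while KRT18 (-0.67) and the carbonic anhydrase CA12 (-0.42) were lower.

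Markers of blood cells, endothelial cells and fibroblasts were read as well. Of 9 blood cell markers 0 were called by limma, beside 27.2% of all genes, and 2 had an unadjusted p under 0.05. Their mean level was 6.76 to 6.81 in treated CALDOX and 6.72 to 6.84 in treated CAL51. Of 9 endothelial markers 1 was called (11.1%), EMCN at 0.24, which was lost with the mean of its probe sets (0.06). PECAM1, an endothelial adhesion protein, differed by 0.18 ± 0.08 on its brightest probe set and by 2.16 to 2.67 on 3 of the other 4. Of 9 fibroblast markers PDPN was higher (0.68 ± 0.07), and PDGFRB (-1.44 ± 0.09) and COL3A1 (-0.77 ± 0.09, and -0.36 over the mean of its 5 probe sets) were lower. This is 33.3% of the fibroblast markers, near the 27.2% of all genes. Over all arrays PDPN averaged 12.49, PDGFRB 8.53 and COL3A1 6.70, so PDPN was bright in these lines. The mean level of these 9 was 7.38 to 7.44 in treated CALDOX and 7.49 to 7.63 in treated CAL51. Their part in the matrix and mesenchymal values was not tested.

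**Figure D5:**
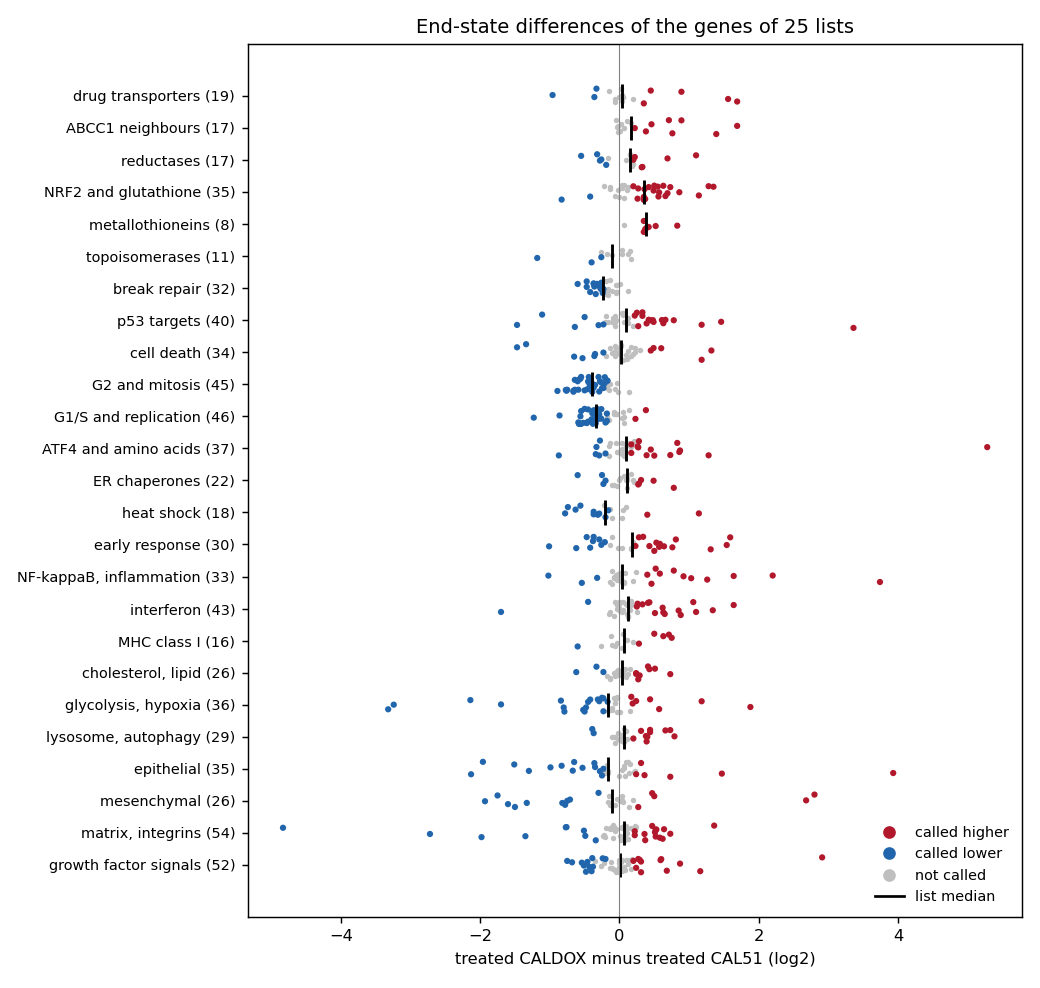
Log2 difference, treated CALDOX minus treated CAL51, of every measured gene of 25 lists, with the number of genes in brackets, called genes in red (higher) or blue (lower) and the list median as a black bar; points are spread vertically for legibility. The medians of the cell division lists (-0.39 and -0.33) lie lowest and those of the metallothioneins (0.38) and the NRF2 and glutathione genes (0.35) highest.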

How the data were processed

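Total RNA of 15 cultures was labelled as biotinylated cRNA and hybridized to 1 Affymetrix array each. The authors deposited log2 intensities. The submitters' processing notes name RMA, a method that corrects background, quantile normalizes and summarizes probes. The version of RMA is not stated in any source used here, and the log base was taken from the range of 3.083 to 14.762. No normalization was added, and scanner files were not used here. Dim probe sets keep background signal and so understate fold changes. Of 54675 probe sets, 41097 had 1 gene symbol in the platform annotation, 1801 had several and 11777 had none. After removal of control probe sets 41091 were used. Each of 19775 genes took its brightest probe set by the mean of all 15 arrays, and 10523 genes had several to choose from.

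A mean for each of the 5 groups was fitted over all 15 arrays by lmFit and eBayes of limma 3.58.1, run under R 4.3.3 (10 residual and 5.397 prior degrees of freedom), with no covariate. P-values were two-sided and given Benjamini-Hochberg adjustment across the 19775 genes of each contrast. With 3 arrays in each group, the number of arrays limits the precision. On simulated data, limma recovered 85.1% of genes changed by 0.5 on the log2 scale, 98.5% at 1 and 100% at 2, with 13 false calls among 202. The simulation used independent normal noise and changed 67, 67 and 66 of 19775 genes at these sizes, in treated CALDOX alone. In the real comparison 27.2% of genes were called, so these rates need not hold there. No scan or hybridization batch is given in the labels.

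The comparison, the 31 gene lists (832 genes measured) and the naming rule were chosen with earlier results of these data known. The rule named the 15 highest and 15 lowest genes among those called, at least 2-fold apart and without overlap between arrays. It added up to 4 genes of each list with the largest absolute difference, ABCB1, ABCC1, ABCG2, TOP2A, TOP2B, CDKN1A and MDM2, and up to 8 genes in each direction with the largest difference of the differences, if called and at least 2-fold. Other list members were named after their values were seen. Alternatives varied the arrays in the fit, the normalization, an array spread covariate, the choice of probe set, a filter on low levels, array weights, the variance prior and a replicate block, and left out each array in turn. Promoters came from RefSeq.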

Additional observations from a re-analysis of the deposited data

Results flagged for a closer look

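Each gene here has an end-state difference, treated CALDOX minus treated CAL51, that differs by limma from the difference between untreated CALDOX and untreated CAL51. The value given is the first minus the second on the log2 scale, and 35 of the 156 genes named by the rule met this. Some of the 35 were taken by the rule because they were called for this difference, so they met it by construction. These were RXFP1, ASNS, SLC7A11, INHBE, TRIB3, RASGRP1, TRIM22, PURPL, KITLG, XG, ADH1C, EGR3, RASEF and MEOX1. Over all 19775 genes 283 were called (1.43%), and the share among the named genes cannot be compared with that.

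Under drug CALDOX stood higher relative to CAL51 than in the untreated lines in 4 named genes of the ATF4 list. They were ASNS (1.35), SLC7A11 (1.21), INHBE (1.16) and TRIB3 (1.09), all taken by the rule for this difference. In the whole list 22 of 37 genes were positive, beside 0.576% of all genes. The relaxin receptor RXFP1 (1.49), the signalling exchange factor RASGRP1 (1.06), the chemokine CCL20 (0.87), AMIGO2 (0.62), fibronectin FN1 (0.62), NTS (0.49) and the collagen COL1A2 (0.39) were shifted likewise.

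Under drug CALDOX stood lower relative to CAL51 than in the untreated lines in 7 named members of the p53 target list. They were TRIM22 (-1.42), PURPL (-1.24), KITLG (-1.24), FAS (-0.97), CDKN1A (-0.87), CROT (-0.81) and MDM2 (-0.62). TRIM22, PURPL and KITLG were taken by the rule for this difference. In the whole list 20 of 40 genes were negative, beside 0.855% of all genes. The blood group protein XG (-1.17), the alcohol dehydrogenase ADH1C (-1.09), the early response factor EGR3 (-1.08), RASEF (-1.07), the homeobox factor MEOX1 (-1.06), the transporter ABCG2 (-0.88), GNB4 (-0.87) and the keratin KRT19 (-0.83) were shifted in this direction. So were the metallothioneins MT1M (-0.90) and MT1F (-0.35), FOS (-0.64), TP53TG1 (-0.55), the histone H2BC12 (-0.44), DUSP5 (-0.40), IER3 (-0.39), AGR2 (-0.37) and CA12 (-0.37).

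XG read 5.68, 5.72 and 5.83 in treated CALDOX against 7.01, 7.40 and 7.74 in treated CAL51, with 5.97, 5.67 and 5.78 in untreated CALDOX and 6.27, 6.26 and 6.30 in untreated CAL51. MEOX1 read 7.69, 7.76 and 7.65 in treated CALDOX against 8.96, 8.64 and 8.92 in treated CAL51, and the untreated lines overlapped at 8.63 to 8.77 and 8.66 to 8.90. RASEF is less certain, since the mean of its 5 probe sets differed by -0.11 at the end state and did not pass.

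For 12 of the 35 the call was lost when 1 array was left out. The highest adjusted p came without treated CALDOX replicate 3 for AMIGO2 (0.083), NTS (0.12) and IER3 (0.11), and without treated CALDOX replicate 1 for AGR2 (0.059) and MDM2 (0.085). It came without treated CAL51 replicate 1 for DUSP5 (0.098), without untreated CAL51 replicate 3 for CCL20 (0.058), and without untreated CALDOX replicate 3 for TP53TG1 (0.069), MT1F (0.095), COL1A2 (0.063), CA12 (0.065) and RASGRP1 (0.086).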

How the results depend on the processing

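The end-state counts stayed within 1.5 times the reported ones under the alternatives tried, with 1 exception: array weights, whose estimation stopped before full convergence, gave 4267 higher genes. With a replicate block 5262 genes were called at the end state and 214 for the difference of the differences. Treated arrays with the same number correlated at -0.07, -0.14 and 0.07 in their deviations from the group means, so the replicate numbers were not used as pairs. Of the end-state differences of the named genes, 2578 comparisons with an alternative kept the call or its absence, 16 gained the call and 18 lost it. Direction was compared only for genes called in the main fit. The 1 reversal was MDM2 at 0.55 (adjusted p = 0.0047) with its most variable probe set, a dim one of 10.

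The counts for the end-state difference minus the untreated difference moved more. Called genes numbered 427, 182 of them positive, with repeated quantile normalization. They numbered 586 (266 positive, 320 negative) with array spread as a covariate, 500 (187 positive, 313 negative) among genes above the median level, 1231 (528 positive, 703 negative) with array weights and 470 (174 positive, 296 negative) with a variance trend and robust prior. Of genes at least 2-fold, 3 were positive and 5 negative above the median level, and 5 were negative with the mean of probe sets and 14 with the most variable one. Leaving out 1 array gave 161 to 353 called, 69 to 134 positive and 91 to 219 negative. The cause of these moves was not tested. With 3 arrays a group and no detection calls, small differences of dim genes are the least certain.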

Other observations

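Some genes with large end-state differences lay outside the lists and were chosen after their values were seen. Among enzymes that oxidize or conjugate small molecules, ALDH1A1, a retinal dehydrogenase used as a stem-like marker, read 13.27, 13.29 and 13.26 in treated CALDOX and 10.76, 10.78 and 10.90 in treated CAL51, 5.52-fold higher (2.46 ± 0.06, adjusted p = 2.9e-14 by limma). CYP1A1, the main target of the aryl hydrocarbon receptor, was higher by 2.12 ± 0.07, the glucuronosyltransferase UGT1A6 by 2.27 ± 0.13 and the fatty acid hydroxylase CYP4F11 by 2.34 ± 0.08. PDK4, which turns glucose away from mitochondria, was higher by 2.13 ± 0.16. Each of the 5 was higher on every treated CALDOX array than on any treated CAL51 array, and was called higher in untreated CALDOX too.

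Genes of DNA damage handling were among those well below CAL51. SLFN11, which blocks stalled replication forks, read 5.30, 4.68 and 5.08 in treated CALDOX and 6.99, 6.85 and 7.02 in treated CAL51 (-1.93 ± 0.11, adjusted p = 1.3e-09). MGMT, which removes alkyl groups from guanine, differed by -2.07 ± 0.09 and the chromatin remodeller ATRX by -1.64 ± 0.07. The untreated lines differed at these 3 genes by -2.53, -1.78 and -1.49. The tubulin TUBA1A differed by -2.77 ± 0.11 under drug and -1.80 in the untreated lines, further apart by -0.97 (adjusted p = 0.0029).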
